A study of Danio rerio with 12 samples.

Results

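The heat shock and chaperone genes examined here were a named set of 36 zebrafish symbols, given by name. Of these entries, 21 matched a gene symbol directly, 14 matched after the mark of the gene copy was dropped, and hsp70.2 matched none. They gave 37 of the 32520 genes in the tables, and 32 of the 37 had enough counts to be tested. The set was labelled cytosolic, but HSPD1 and HSPE1 encode mitochondrial chaperonins and SERPINH1 encodes a collagen chaperone of the endoplasmic reticulum, so that name does not cover all of it. Copies that share a symbol are printed with their Ensembl identifier, and no copy letter is assigned to them.

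RNA was sequenced from adult whole liver of zebrafish in which glyoxalase 2 had been knocked out with CRISPR (glo2-/-, 6 libraries) and of wild type fish (glo2+/+, 6 libraries). Glyoxalase 2 is the last enzyme in the removal of methylglyoxal, which glycolysis gives off. All 12 libraries came from the Tg(fli1:EGFP) line, which carries a green fluorescent protein under an endothelial promoter, and all fish were marked as not trained. The labels give neither sex nor age in numbers, do not say what the knockout allele removes, and do not say that each library was a separate fish, so the spread behind each p-value may in part be technical.

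Chaperones bind unfolded proteins and help them to fold, or hand them on for breakdown. HSP70 proteins and their HSP40 partners (the DNAJ genes) bind first, HSP110 proteins exchange the nucleotide of HSP70, and HSP90 with its co-chaperones finishes many signalling proteins. Some of these genes are expressed in every cell (constitutive), while others are low at rest and are switched on by the transcription factor HSF1 when unfolded proteins build up (inducible).

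Each library held 17433960 to 18465485 estimated counts, and 14509 genes were tested. HAGH, the gene of glyoxalase 2, was at 91.6 to 105 CPM (counts for every 1000000 in the library) in glo2+/+ and 76.1 to 88.1 CPM in glo2-/- liver, without overlap, with a log2 fold change of -0.22 (SE 0.09; adjusted p = 0.819 by edgeR). The hepatocyte markers summed to 208950 to 337260 CPM in glo2+/+ and 189380 to 344540 CPM in glo2-/- libraries, with 0 of 13 at 0, and those of exocrine pancreas to 21.7 to 2723 and 44.8 to 8565 CPM. In bulk liver, fewer cells of a type and less RNA per cell cannot be told apart.

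The chaperones of resting cells made up most of the set. In TPM, which allows for transcript length, HSP90AB1, the constitutive cytosolic HSP90, averaged 1142 over the 12 libraries (range 754 to 1599), and HSPA8 (ENSDARG00000068992), the constitutive HSP70, averaged 1113 (678 to 1499). These ranges overlapped almost fully, and which of these genes was higher differed by library. HSP90AB1 was at 1599 TPM against 1099 for HSPA8 (ENSDARG00000068992) in glo2+/+ replicate 3, and at 927 against 1499 in glo2-/- replicate 5. HSPE1, the small mitochondrial chaperonin, followed at 228 TPM (119 to 367), then HSPD1, its large partner, at 126 (61.5 to 223), and DNAJA2 (ENSDARG00000104066), an HSP40, at 119 (97.3 to 139). Together HSPA8 (ENSDARG00000068992) and HSP90AB1 held 54.4% to 82.6% of the TPM of the set. The whole set took 0.213% to 0.446% of all TPM in a library, least in glo2-/- replicate 1 and most in glo2-/- replicate 5.

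**Figure D1:**
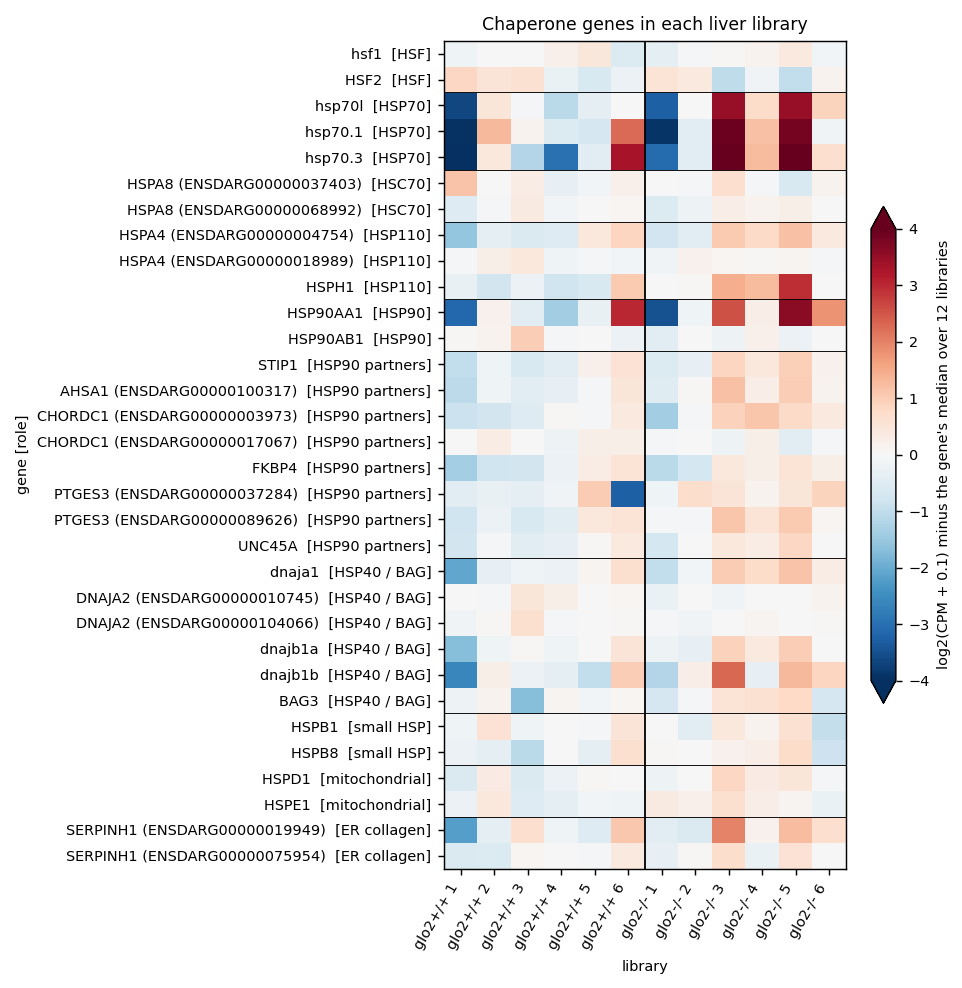
Level of each of the 32 tested genes (rows, grouped by role) in each of the 12 libraries (columns, glo2+/+ on the left, glo2-/- on the right), as log2(CPM + 0.1) minus the median of that gene over all libraries, with colours ending at -4 and 4. The HSP70 copies and HSP90AA1 are red in glo2-/- replicates 3 and 5, and blue in glo2+/+ replicate 1 and glo2-/- replicate 1, while HSP90AB1 and both DNAJA2 copies stay pale in most libraries.

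The inducible HSP70 genes and HSP90AA1 varied most. The gene hsp70l, the usual heat shock reporter gene of zebrafish, had a lowest, median and highest level of 0.956, 11.3 and 18.3 CPM in glo2+/+ and 1.26, 23.0 and 146 CPM in glo2-/- liver. Both glo2-/- replicates 3 and 5 were near 146 CPM, 1 library of each genotype was near 1 CPM, and the remaining 8 lay between 6.1 and 24.3 CPM, so the genotypes overlapped. The log2 fold change was 2.53 (SE 0.89) with an unadjusted p of 0.0134, and it did not pass over all genes (edgeR adjusted p = 0.819). By exact permutation of the libraries (two-sided, on log2 CPM) p was 0.171. With limma the change was smaller and was not called even before adjustment, at 1.80 (unadjusted p = 0.0999) with voom, 1.61 (0.0730) on log2(TPM + 1) and 1.74 (0.117) on log2(TPM + 0.1). The glo2-/- median was 2.03 times the glo2+/+ median, and 5 of 6 glo2-/- libraries lay above the latter.

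The copy hsp70.3 reached the highest level per length of the inducible genes, 396 TPM in glo2-/- replicate 5. It lies next to hsp70.2 and 2 places from hsp70.1 in the RefSeq gene order of assembly GRCz12tu. Its lowest, median and highest levels were 0.393, 16.5 and 277 CPM in glo2+/+ and 3.23, 56.4 and 714 CPM in glo2-/- liver. Here glo2+/+ replicate 6 came behind only glo2-/- replicates 5 and 3. For hsp70.3 a log2 fold change of 1.98 was fitted (SE 1.34, edgeR adjusted p = 0.835), and the exact permutation p was 0.206. It was 1.23 without glo2-/- replicate 5 and 3.96 without glo2+/+ replicate 6. Levels of hsp70.1 ran from 0.112 to 15.8 CPM (median 2.88) in glo2+/+ and from 0.120 to 50.3 CPM (median 5.11) in glo2-/- liver, with a log2 fold change of 1.79 (SE 1.06, edgeR adjusted p = 0.828), which was 1.17 without glo2-/- replicate 3 and 0.92 with limma on log2(TPM + 1). The same 3 libraries were highest for hsp70.1, and replicate 1 of each genotype was lowest for all 3 copies. In both of these lowest libraries hsp70.1 had only 2 counts, so its range ends near the floor.

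The proportions of the copies varied among libraries, and 1 stood apart. In glo2+/+ replicate 6 hsp70.3 stood at 21.4 times the CPM of hsp70l, against 0.412 to 4.89 times in the other 11. The lowest ratio, in glo2+/+ replicate 1, came from only 7 counts of hsp70.3 and 17 of hsp70l. The high level of hsp70.3 in glo2+/+ replicate 6 went with 12.9 CPM of hsp70l, which lay within the range of the other glo2+/+ libraries. In TPM, HSP70 transcripts were taken as the 3 inducible copies and HSPA8 (ENSDARG00000068992), without the other HSPA8 gene. The inducible copies supplied 0.0951% to 11.2% of them in glo2+/+ and 0.292% to 25.2% in glo2-/- libraries. HSPA8 (ENSDARG00000068992) thus had the most TPM of these genes in every library. A further gene, HSPA2 (ENSDARG00000092362), is not counted in these shares, and whether it is another inducible HSP70 copy was not settled, since hsp70.2 matched no gene. Reads of near-identical copies are assigned by likelihood, so the split among hsp70.1, hsp70.3 and hsp70l is uncertain.

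**Figure D2:**
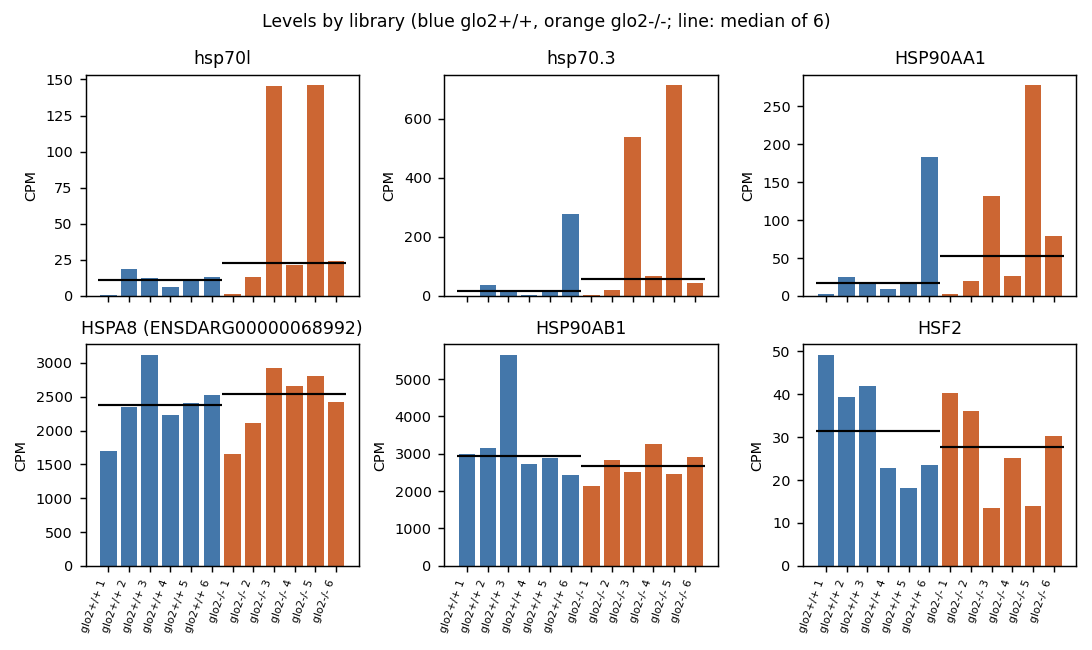
CPM of 6 genes in each library (bars, blue for glo2+/+, orange for glo2-/-), with a line at the median of each genotype. Bars of hsp70l, hsp70.3 and HSP90AA1 are dominated by glo2-/- replicates 3 and 5 and, for the latter 2 genes, glo2+/+ replicate 6. Bars of HSPA8 differ less, from 1654 to 3117 CPM, and are lowest in replicate 1 of each genotype. HSP90AB1 stands highest in glo2+/+ replicate 3, and HSF2 is lowest in glo2-/- replicates 3 and 5.

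Constitutive HSP70 varied far less. HSPA8 (ENSDARG00000068992) lay at 1697, 2382 and 3117 CPM (lowest, median, highest) in glo2+/+ and 1654, 2537 and 2919 CPM in glo2-/- liver. The groups overlapped almost wholly, with a log2 fold change of 0.02 (SE 0.17, 95% interval -0.34 to 0.38, edgeR adjusted p = 0.987). The other HSPA8 gene (ENSDARG00000037403) reached at most 1.1 TPM, and its log2 fold change was -0.25 (SE 0.32).

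Among the HSP110 genes, HSPH1, an inducible member, was at 1.22, 1.60 and 4.67 CPM in glo2+/+ and 2.21, 3.89 and 17.9 CPM in glo2-/- liver (lowest, median, highest). All 6 glo2-/- libraries were above the glo2+/+ median, but glo2+/+ replicate 6 was higher than 3 of them, and glo2-/- replicate 5 was far above the rest. The log2 fold change was 1.56 (SE 0.55, unadjusted p = 0.0137, edgeR adjusted p = 0.819; exact permutation p = 0.0519). It was 0.86 without glo2-/- replicate 5 and 0.69 with limma on log2(TPM + 1). HSPA4 (ENSDARG00000004754), another HSP110, lay at 50.1, 107 and 265 CPM in glo2+/+ and 85.8, 220.2 and 332 CPM in glo2-/- liver, with a log2 fold change of 0.63 (SE 0.41, edgeR adjusted p = 0.834). Its copy HSPA4 (ENSDARG00000018989) was far steadier, with 69.4 to 103 CPM over all 12 libraries and a log2 fold change of -0.03 (SE 0.13). HSPA4L had at most 2 counts in any library and was not tested.

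The HSP90 genes also differed in their spread. HSP90AA1 (ENSDARG00000024746), an inducible HSP90, had 2.47, 17.5 and 184 CPM in glo2+/+ and 1.92, 52.7 and 278 CPM in glo2-/- liver (lowest, median, highest). Again glo2-/- replicate 5, glo2+/+ replicate 6 and glo2-/- replicate 3 were the highest, and replicate 1 of each genotype the lowest. A log2 fold change of 1.07 was fitted for HSP90AA1 (SE 1.04; adjusted p = 0.889 by edgeR), which was 0.31 without glo2-/- replicate 5 and 2.65 without glo2+/+ replicate 6. HSP90AB1 was at 2428, 2933 and 5643 CPM in glo2+/+ and 2140, 2670 and 3270 CPM in glo2-/- liver, with a log2 fold change of -0.30 (SE 0.20, edgeR adjusted p = 0.834). The top value belonged to glo2+/+ replicate 3 alone, and without that library the log2 fold change was -0.08. HSP90AA1 never exceeded 8.91% of the HSP90 TPM in glo2+/+ or 12.7% in glo2-/- libraries. The neighbouring gene hsp90aa1.1, known as a chaperone of myosin in zebrafish muscle, had 0 to 4 counts and was not tested.

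Co-chaperones of HSP90 mostly covered a smaller range. AHSA1 (ENSDARG00000100317), which stimulates the ATPase of HSP90, was at 17, 29.7 and 49.5 CPM in glo2+/+ and 25.4, 40.7 and 78.7 CPM in glo2-/- liver, with a log2 fold change of 0.65 (SE 0.29, unadjusted p = 0.0427, edgeR adjusted p = 0.819; exact permutation p = 0.0952). PTGES3 (ENSDARG00000089626), the p23 co-chaperone, was at 13.8, 18.9 and 35.3 CPM and at 22.7, 30.3 and 51.6 CPM, with a log2 fold change of 0.63 (SE 0.29, unadjusted p = 0.0493, edgeR adjusted p = 0.819; exact permutation p = 0.0714). Groups overlapped for both genes. Its copy PTGES3 (ENSDARG00000037284) was at 1.70 CPM in glo2+/+ replicate 6 and at 12.8 to 35.4 CPM in the other 11 libraries. The log2 fold change of this copy was 0.64 (SE 0.45, edgeR adjusted p = 0.841), and 0.41 without glo2+/+ replicate 6.

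Of the remaining HSP90 partners, STIP1, which links HSP70 to HSP90, had a log2 fold change of 0.51 (SE 0.30). FKBP4, a co-chaperone of steroid receptors, had 0.28 (SE 0.34), and UNC45A, a myosin and HSP90 partner, had 0.36 (SE 0.25). CHORDC1 (ENSDARG00000003973), an HSP90-binding protein, had 0.71 (SE 0.36), while its copy CHORDC1 (ENSDARG00000017067) had -0.17 (SE 0.13). Their edgeR adjusted p-values lay between 0.819 and 0.910. The second AHSA1 gene (ENSDARG00000028664), with 0 to 7 counts, was not tested.

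The HSP40 genes and BAG3 came next. The level of dnajb1b, an inducible HSP40, was 3.15, 15.9 and 39.0 CPM in glo2+/+ and 8.63, 29.6 and 96.7 CPM in glo2-/- liver, highest in glo2-/- replicate 3, with a log2 fold change of 1.1 (SE 0.59, edgeR adjusted p = 0.819), which was 0.57 without that library. Levels of dnaja1 were 5.79, 21.7 and 39.3 CPM against 12.5, 36.1 and 55.5 CPM, lowest in glo2+/+ replicate 1, with a log2 fold change of 0.66 (SE 0.40). For dnajb1a it was 0.51 (SE 0.32), and for BAG3, a nucleotide exchange factor of HSP70, 0.38 (SE 0.33). Both DNAJA2 copies were slightly below 0, at -0.12 (SE 0.14) for ENSDARG00000104066, which lay at 195 to 337 CPM in glo2+/+ and 194 to 231 CPM in glo2-/- liver, and at -0.17 (SE 0.12) for ENSDARG00000010745. None of these passed the threshold.

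Small heat shock proteins hold unfolded proteins without using ATP. HSPB8, which works with BAG3, averaged 71.9 TPM against 6.88 TPM for HSPB1. In CPM, HSPB8 lay at 121 to 395 CPM in glo2+/+ and 144 to 421 CPM in glo2-/- liver, with a log2 fold change of 0.26 (SE 0.27). HSPB1 lay at 2.65 to 7.89 CPM over all libraries, with a log2 fold change of -0.10 (SE 0.25). Both CRYAB genes, alpha B-crystallins, had 0 to 19 counts and were not tested. The mitochondrial pair had log2 fold changes of 0.40 (HSPD1, SE 0.21) and 0.38 (HSPE1, SE 0.18), with an edgeR adjusted p of 0.819 for each. HSPD1 lay at 171, 235 and 325 CPM in glo2+/+ and 222, 290 and 450.4 CPM in glo2-/- liver. HSPE1, given in TPM, lay at 119, 193 and 251 in glo2+/+ and 206, 254 and 367 in glo2-/- liver. For both genes glo2-/- replicate 3 was highest and the groups overlapped. SERPINH1 (ENSDARG00000019949) lay at 0.618, 2.61 and 6.79 CPM in glo2+/+ and 2.11, 4.36 and 12.8 CPM in glo2-/- liver, with a log2 fold change of 0.75 (SE 0.53), and SERPINH1 (ENSDARG00000075954) had 0.26 (SE 0.23). Without glo2-/- replicate 3 the fold changes of HSPD1 and these copies were 0.26, 0.32 and 0.12 in that order.

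The regulators were examined beside their targets. Levels of hsf1 were 5.04, 7.42 and 10.3 CPM in glo2+/+ and 5.69, 7.43 and 9.83 CPM in glo2-/- liver, with a log2 fold change of 0.00 (SE 0.18, 95% interval -0.38 to 0.39). HSF2, a related factor of stress and development, was at 18.1, 31.5 and 49.2 CPM in glo2+/+ and 13.6, 27.8 and 40.4 CPM in glo2-/- liver, with a log2 fold change of -0.29 (SE 0.32). Its lowest levels, 13.6 and 13.9 CPM, were in glo2-/- replicates 3 and 5.

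Across the set, no tested gene passed an edgeR adjusted p of 0.05, where 0.00689% of all tested genes did (1 gene). At an unadjusted p under 0.05, 4 of the 32 were higher in glo2-/- liver, namely hsp70l, HSPH1, AHSA1 (ENSDARG00000100317) and PTGES3 (ENSDARG00000089626), and 0 were lower, against 2.47% higher and 3.41% lower of all tested genes. By DESeq2 none passed either, with 5 at an unadjusted p under 0.05 and a smallest adjusted p of 0.299 (HSPH1). The fold was positive for 24 and negative for 8, with a median log2 fold change of 0.39, while 47.6% of all tested genes were positive and their median was -0.01. Other lists moved beside it. The sterol synthesis genes were positive for 20 of 21 (median 1.24) and the macrophage markers for 0 of 12 (median -0.45). Genes of the unfolded protein response, in the endoplasmic reticulum, were positive for 23 of 26 (median 0.31). The exocrine pancreas markers were positive for 16 of 16 (median 1.14), but their mean log2 CPM was not higher in glo2-/- liver. It had a median of 5.43 in glo2+/+ and 4.08 in glo2-/- libraries, and was highest in glo2-/- replicates 1 (8.43) and 5 (7.43). With the pancreas level as a covariate, 3 genes of the set were at an unadjusted p under 0.05, and the log2 fold change was 2.46 for hsp70l, 2.54 for hsp70.3 and 1.46 for HSP90AA1. No gene of the set separated the genotypes without overlap (0.0965% of tested genes did so with glo2-/- higher and 0.152% with glo2-/- lower). The count of 4 was 12 without glo2+/+ replicate 6, 10 without glo2-/- replicate 1, 1 without glo2-/- replicate 5, and 2 without any one of glo2-/- replicate 3 and glo2+/+ replicates 1, 3 and 4. For the DESeq2, covariate and leave-one-out fits the share of all genes at this level is not given. Their counts therefore have no background and are not read as a result about the set.

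**Figure D3:**
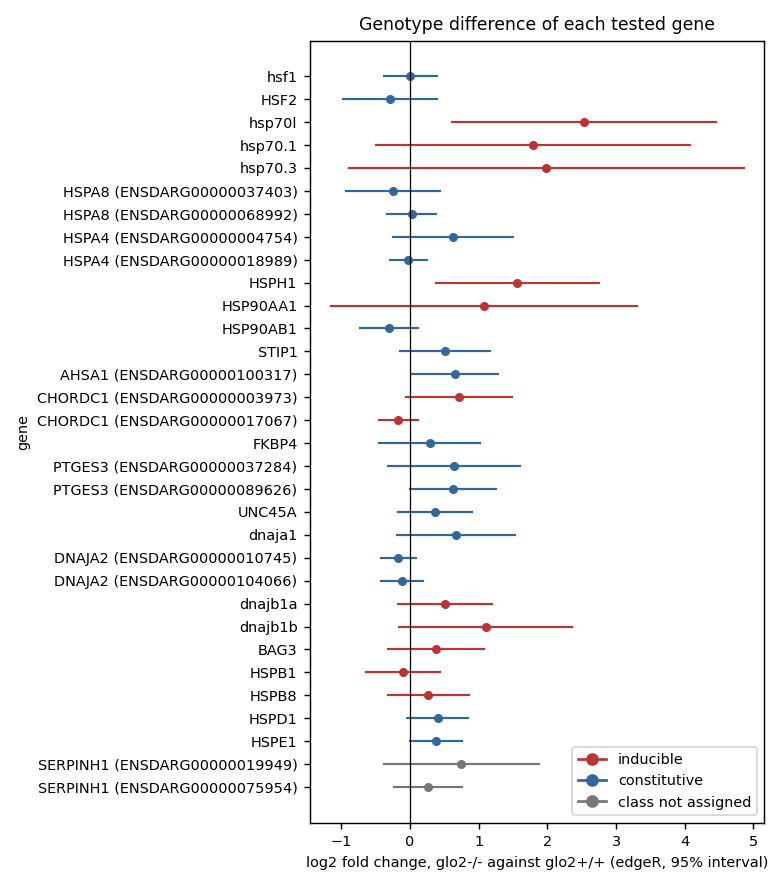
Log2 fold change of glo2-/- against glo2+/+ liver for each of the 32 tested genes (points) with its 95% interval from edgeR (lines), coloured by class. Intervals are widest for the HSP70 copies and HSP90AA1, and those of hsp70l, HSPH1, AHSA1 (ENSDARG00000100317) and PTGES3 (ENSDARG00000089626) lie above 0 before adjustment over all genes.

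Genes were also sorted into 12 tested ones that the literature treats as strongly heat-inducible and 18 other tested ones, called constitutive here. Among the constitutive were hsf1 and HSF2, and the SERPINH1 copies were in neither class. The constitutive label thus does not mean that a gene lacks a heat response. Like the other lists, these classes were chosen with earlier results of these data known. Of the inducible genes 10 had a positive fold and the median log2 fold change was 0.89. For the constitutive genes these were 12 and 0.32. The inducible median depended on single libraries: it was 0.51 without glo2-/- replicate 5, 0.59 without glo2-/- replicate 3 and 1.19 without glo2+/+ replicate 6. The constitutive median was 0.19 without glo2-/- replicate 5 and 0.20 without glo2+/+ replicate 1. The range of log2 CPM over the 12 libraries exceeded 2 for 9 of 12 inducible and 4 of 18 constitutive genes, against 20.8% of all tested genes, and the median SD of log2 CPM was 0.94, 0.46 and 0.38 in that order. Not every inducible gene varied: CHORDC1 (ENSDARG00000017067) spanned only 0.72 on the log2 scale.

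Whether the genes varied together from library to library was examined with the mean log2 CPM of the inducible genes, leaving out the gene compared. This index was chosen after the data were seen in place of hsp70l, whose levels fell into separate clusters. The mean of all 12 was lowest in glo2+/+ replicate 1 (1.96) and glo2-/- replicate 1 (2.41), lay from 3.22 to 4.91 in 8 libraries, and was highest in glo2-/- replicates 3 (5.56) and 5 (5.77). Of 32 relations, 19 were positive and 1 was negative at an unadjusted permutation p under 0.05 by Pearson's r, against 8.08% positive and 7.0% negative of all tested genes. All 20 were also under 0.05 by Spearman's rho before adjustment, and the sign was the same within each genotype in all 20. With Benjamini-Hochberg adjustment over all 14509 genes, 10 positive and 0 negative relations passed by r (0.172% and 0.0207% of all genes did). By rho none of the set passed, with a smallest adjusted p of 0.0544. For hsp70.3 rho was 1.0, yet its permutation p was 1e-05, the smallest that 100000 permutations can give. The number of permutations thus limited the adjusted p by rho, and this result does not show that the rank relations fail. The 10 that passed by r were hsp70l, hsp70.1, hsp70.3, HSPA4 (ENSDARG00000004754), HSP90AA1, STIP1, AHSA1 (ENSDARG00000100317), UNC45A, dnaja1 and dnajb1a. For hsp70l, hsp70.1 and hsp70.3 the index still held the other HSP70 copies. Reads of near-identical copies are assigned by likelihood, so the r of these copies is not independent of the index. The 19 were 8 of 12 inducible genes, 9 of 18 constitutive genes and both SERPINH1 copies. The inducible genes outside the 19 were BAG3 (r = 0.55), HSPB1 (0.48), HSPB8 (0.47) and CHORDC1 (ENSDARG00000017067, -0.25). Without the 2 libraries farthest from the median (glo2+/+ replicate 1 and glo2-/- replicate 5), the r of the 19 stayed at 0.64 or above. Among the 8 middle libraries alone, all 19 were still positive, with a median r of 0.76, from 0.10 for HSPA8 (ENSDARG00000068992) to 0.93 for hsp70.3.

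Adjusted values for these relations are over all tested genes. Constitutive genes in this group included AHSA1 (ENSDARG00000100317), with r = 0.97 (permutation p = 1e-05, adjusted 0.0161) and rho = 0.97 (p = 2e-05, adjusted 0.0544), where 1e-05 is the smallest p that 100000 permutations can give. Its r was 0.93 without the 2 farthest libraries, 0.96 within glo2+/+ and 0.98 within glo2-/-. UNC45A had r = 0.96 (permutation p = 2e-05, adjusted 0.0223) and rho = 0.93 (p = 3e-05, adjusted 0.0544), with 0.92 without the 2 farthest libraries, 0.93 within glo2+/+ and 0.96 within glo2-/-. The negative relation was that of HSF2, with r = -0.78 (permutation p = 0.00237, adjusted 0.138) and rho = -0.69 (p = 0.0163, adjusted 0.283), which did not pass. For HSF2, r was -0.62 without the 2 farthest libraries, -0.48 within glo2+/+ and -0.95 within glo2-/-. Among the 8 middle libraries r was -0.12, so the relation was hardly seen without the 4 outer libraries. The 8 cover a narrower range of the index, which can itself lower r. With hsf1, r was 0.24 (permutation p = 0.449, adjusted 0.779) and rho was 0.23 (p = 0.47, adjusted 0.793). The sign for hsf1 differed between the genotypes, with r of -0.35 within glo2+/+ and 0.89 within glo2-/-. It was -0.08 without the 2 farthest libraries and -0.71 among the 8 middle libraries.

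With hsp70l itself as the index, 18 of 31 relations were positive and 1 was negative at an unadjusted permutation p under 0.05, against 6.52% and 4.98% of all tested genes, and none passed over all genes, but in the 8 libraries between the extremes r of those 18 had a median of 0.41 and ran from -0.38 to 0.62, with 17 positive. The relations were thus weaker without the libraries with very high or very low hsp70l. These 8 cover a narrower range of hsp70l, which can itself lower r.

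Some copies of one gene differed in how they followed the inducible mean. HSPA4 (ENSDARG00000004754) rose with it (r = 0.92, permutation p = 2e-05, adjusted 0.0223; rho = 0.95, p = 3e-05, adjusted 0.0544; 0.86 without the 2 farthest libraries), while HSPA4 (ENSDARG00000018989) had r = 0.21 (p = 0.505, adjusted 0.812) and rho = 0.34 (p = 0.288, adjusted 0.674). This contrast depended on the scale. Against hsp70l, the latter copy had r = 0.39 on log2 CPM but 0.73 on log2(TPM + 1), and the former had 0.84 on both. CHORDC1 (ENSDARG00000003973) had r = 0.80 (permutation p = 0.00212, adjusted 0.136) and rho = 0.79 (p = 0.00316, adjusted 0.183), with 0.76 without the 2 farthest libraries. Its copy ENSDARG00000017067 had r = -0.25 (permutation p = 0.423, adjusted 0.763) and rho = -0.06 (p = 0.849, adjusted 0.955). For HSP90AA1 r was 0.93 (permutation p = 6e-05, adjusted 0.0378) and rho 0.97 (p = 2e-05, adjusted 0.0544), with 0.88 without the 2 farthest libraries. For HSP90AB1 they were -0.19 (permutation p = 0.56, adjusted 0.841) and -0.20 (p = 0.525, adjusted 0.822). Other copies lay close to each other: r was 0.86 and 0.79 for the SERPINH1 copies (adjusted p of 0.0938 and 0.138) and -0.07 and 0.10 for the DNAJA2 copies (adjusted p of 0.957 and 0.91). The difference between the r of such copies was not tested. HSPD1 and HSPE1, which are neighbours in the RefSeq gene order, had r = 0.77 and rho = 0.74 with each other. Their r was 0.65 without the 2 farthest libraries, 0.85 within glo2+/+ and 0.52 within glo2-/-. This pair was picked after its values were seen, so no p-value is given.

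**Figure D4:**
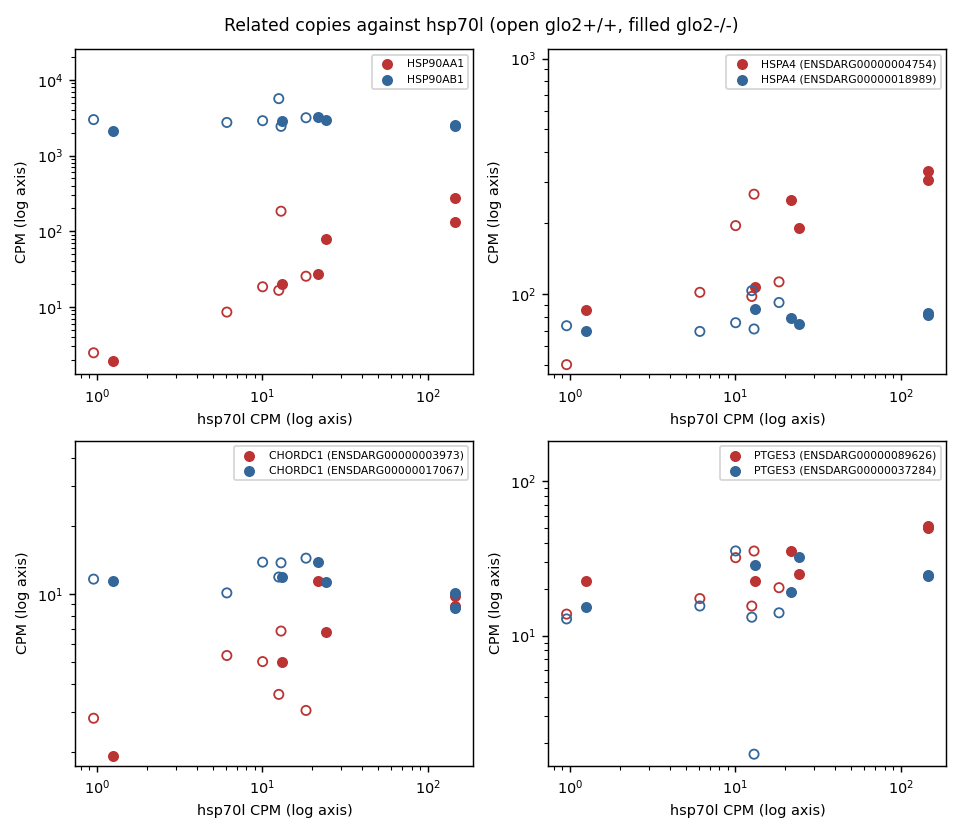
CPM of related copies (red and blue) against CPM of hsp70l, 1 point for each library, open for glo2+/+ and filled for glo2-/-, on log axes. The red genes (HSP90AA1 and the copies HSPA4 ENSDARG00000004754, CHORDC1 ENSDARG00000003973 and PTGES3 ENSDARG00000089626) are higher to the right. Their r with hsp70l on log2 CPM was 0.77 to 0.89. For the blue genes r was lower, at -0.01 for HSP90AB1, 0.39 for HSPA4, -0.32 for CHORDC1 and 0.24 for PTGES3. The low blue PTGES3 point is glo2+/+ replicate 6 at 1.70 CPM.

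Beyond the set, the 10 genes most like the inducible mean over the 12 libraries, of 10815 ranked, were HSPA2 (ENSDARG00000092362, r = 0.98), zgc:162200 (0.95), dnaja (0.95), tmcc1b (0.93), NCK1 (ENSDARG00000075369, 0.93), ZPR1 (0.92), rbm14a (0.92), UBQLN4 (0.92), SEC24B (0.91) and TRAPPC10 (0.90). They were picked for this likeness, so no test applies. HSPA2 may be a further HSP70 copy under another symbol, which was not settled, so it may belong to the set. HSPA2 ran from 0.506 to 231 CPM, while zgc:162200 spanned only 7.76 to 14.2 CPM.

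Other genes of protein folding were taken from lists (the TRiC and prefoldin complexes, further DNAJ, BAG, HSP70, HSP90 and small heat shock genes and other HSF genes). Of 53 tested, 30 had a positive and 23 a negative fold, where 47.6% of all tested genes were positive. Their median log2 fold change was 0.03, and none passed the adjusted threshold. At an unadjusted edgeR p under 0.05, 1 of the 53 was higher and 0 were lower. Of all tested genes 2.47% were higher and 3.41% lower at this level, so the count is not read as a result about these lists. The 1 gene was DNAJC7, an HSP40 that binds both HSP70 and HSP90. It had 40.3, 51.9 and 62.1 CPM (lowest, median, highest) in glo2+/+ and 47.2, 69.0 and 95.5 CPM in glo2-/- liver. A log2 fold change of 0.42 was fitted (SE 0.18, unadjusted p = 0.0333, edgeR adjusted p = 0.819). The 8 tested TRiC genes, subunits of the chaperonin that folds actin and tubulin, had a median of -0.02.

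Other measures of stress, cell makeup and depth were set beside the mean of all 12 inducible genes, in 15 relations. None passed an adjusted permutation p of 0.05 by Pearson's r on log2 CPM. The closest was sterol synthesis, with r = 0.76 (permutation p = 0.00381, adjusted 0.0571) and rho = 0.84 (p = 0.00103, adjusted 0.0154), 0.74 without the 2 farthest libraries, 0.54 within glo2+/+ and 0.84 within glo2-/-. Immediate early genes, which respond within minutes to stimulation, had r = 0.63 (permutation p = 0.028, adjusted 0.186) and rho = 0.68 (p = 0.0188, adjusted 0.139), with 0.54 without the 2 farthest libraries. On log2(TPM + 1), a scale added after the data were seen, both passed, with r = 0.82 for the sterol and 0.80 for the immediate early genes (permutation p adjusted to 0.0147 each). Genes of the unfolded protein response, the counterpart of heat shock in the endoplasmic reticulum, had r = 0.60 (permutation p = 0.0373, adjusted 0.186) and rho = 0.64 (p = 0.0278, adjusted 0.139), with 0.34 without the 2 farthest libraries. Summed levels of the immediate early list were 724 to 1060 CPM in glo2+/+ and 657 to 1074 CPM in glo2-/- libraries, and those of the sterol list 729 to 4671 and 888 to 11469 CPM. For the exocrine pancreas markers r was 0.09 (permutation p = 0.774, adjusted 0.88) and rho 0.13 (p = 0.701, adjusted 0.84). For total counts they were 0.26 (permutation p = 0.409, adjusted 0.809) and 0.17 (p = 0.589, adjusted 0.84). What part the sterol, immediate early or macrophage levels have in the chaperone levels was not tested.

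**Figure D5:**
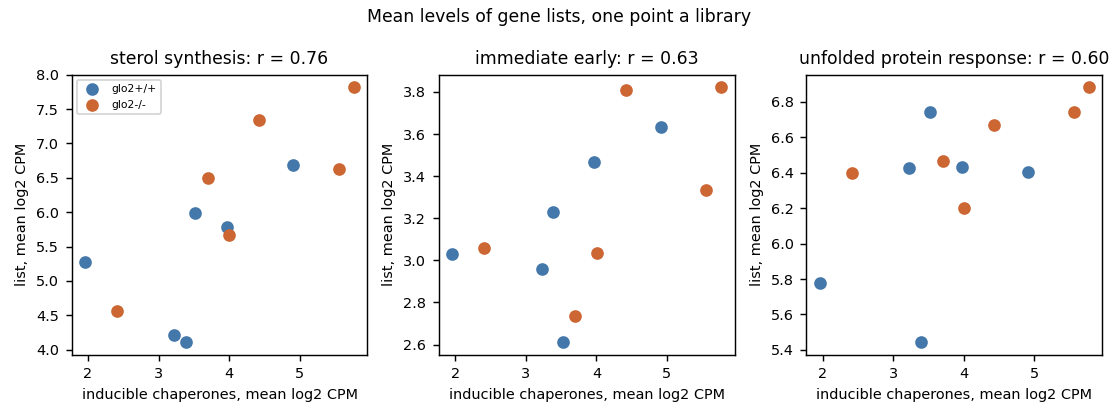
Mean log2 CPM of the sterol synthesis, immediate early and unfolded protein response lists (vertical axes) against that of the inducible chaperones (horizontal axes), 1 point for each library, blue for glo2+/+ and orange for glo2-/-. The sterol list has the highest r, 0.76, with glo2-/- replicate 5 at the top right, while the other lists have r of 0.63 and 0.60.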

How the data were processed

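The authors deposited, for each of 12 libraries, estimated counts per gene and TPM (scaled to 1000000 per library). RNA was extracted with TRIzol for BGISeq-500 sequencing, per the labels' protocols. The tools were Trim Galore (0.6.4), a trimmer, and kallisto (0.4.6), a quantifier, with build GRCz11, per the submitters' processing notes. The strand setting, the annotation release and the summing of transcripts to genes were not given in the sources used here. As background, kallisto shares ambiguous reads by likelihood, so near-identical copies and overlapping genes are uncertain. Of the estimated counts, 19.1% were not whole (tolerance 0.001). Symbols were found for 29201 of 32520 identifiers.

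The rounded counts entered edgeR (4.0.16, under R 4.3.3; filterByExpr, TMM, glmQLFit, glmQLFTest, genotype only), with Benjamini-Hochberg adjustment over 14509 genes and a threshold of 0.05. CPM carry TMM factors, and their log2 values a prior count of 2. Single genes were also compared by exact two-sided permutation over 924 assignments, of which the smallest possible p is 0.00216. Correlations used 100000 permutations, with adjustment over all tested genes for single genes and over the 15 relations for lists. The code was tested on simulated data. No library was a duplicate of another (smallest chi-square per degree of freedom 30.3).

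Named genes were the 10 with the largest range of log2 CPM, the 6 highest in TPM, the HSF genes, those at an unadjusted p under 0.05, pathway genes at that level, and the 10 genes most like the inducible mean (mean log2 CPM of at least 1). Other members were added for completeness. Members and lists were chosen with earlier results of these data known. Alternatives were DESeq2 1.42.0 and its size factors, other filters, limma 3.58.1 (voom and log2(TPM + 1) or log2(TPM + 0.1)), a replicate block, a pancreas covariate and leaving out each library.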

Additional observations from a re-analysis of the deposited data

Results flagged for a closer look

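Of 68 sets of 6 libraries, 7 held a library that stood apart by Dixon's 95% criterion, where chance gives about 3.4 (about 1 in 20); all 7 were glo2+/+ libraries and values are log2 CPM. In glo2+/+ replicate 6, HSPH1 was at 2.26 against 0.41 to 0.98 in the other 5. PTGES3 (ENSDARG00000037284) was at 0.85 there against 3.69 to 5.15. In glo2+/+ replicate 3, HSP90AB1 was at 12.46 against 11.25 to 11.62, and DNAJA2 (ENSDARG00000104066) was at 8.4 against 7.61 to 7.79. BAG3 was at 4.02 in that library against 5.54 to 5.88. In glo2+/+ replicate 1, dnaja1 was at 2.56 against 4.32 to 5.30 and dnajb1a was at 1.93 against 3.46 to 4.13.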

How the results depend on the processing

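No gene of the set passed the adjusted threshold under any alternative run. Over all genes 1 was called by edgeR, 34 by DESeq2, and 1 to 3 when a library was left out. The number of genes higher at an unadjusted p under 0.05, 4 by edgeR, was 2 with limma-voom and 2 with limma on log2(TPM + 0.1) (HSPH1 and HSPE1 in both), 1 on log2(TPM + 1) (HSPE1), 7 with the replicate block and 1 to 12 when a library was left out. The share of all genes at this level in these alternative runs is not given, so these counts have no background. After the genotype mean of each gene was taken off, same-numbered libraries of the genotypes correlated at -0.28 to 0.20. Of 12 libraries, 2 correlated best with their own number in the other genotype, so the numbers were not taken as pairs. Log2 fold changes near 0 turned sign: HSPA4 (ENSDARG00000018989) was 0.030 with limma-voom, 0.072 on log2(TPM + 1) and 0.073 on log2(TPM + 0.1), DNAJA2 (ENSDARG00000104066) was 0.0098 on both TPM scales, and HSPA8 (ENSDARG00000037403) was 0.014 on log2(TPM + 0.1). When a library was left out, hsf1 ran from -0.091 to 0.11, HSPA8 (ENSDARG00000037403) from -0.44 to 0.038, HSPA8 (ENSDARG00000068992) from -0.058 to 0.11, HSPA4 (ENSDARG00000018989) from -0.062 to 0.055, HSPB1 from -0.23 to 0.054 and DNAJA2 (ENSDARG00000104066) from -0.16 to 0.024. The inducible median ran from 0.51 to 1.19. On log2(TPM + 1), added after the data were seen, 2 of the 15 list relations passed by r, sterol synthesis (r = 0.82) and immediate early genes (r = 0.80), each with a permutation p adjusted to 0.0147. The cause of these shifts was not tested. Low counts limit HSPA4L, hsp90aa1.1, AHSA1 (ENSDARG00000028664) and both CRYAB genes, whose differences were not detectable at this depth.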
